A study of Mus musculus with 6 samples.

Results

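The T cell receptor beta locus (Trb) of the mouse lies on chromosome 6, from position 40891229 to 41558452 of GRCm38, and encodes the beta chain of the receptor by which alpha-beta T cells recognise antigen. The deposited library files hold 40 of the 53 Trb segments that GENCODE M21 annotates, among 39171 gene identifiers: 22 variable (Trbv), 2 diversity (Trbd), 14 joining (Trbj) and 2 constant (Trbc) segments. Segments were chosen by name alone, as every gene called Trbv, Trbd, Trbj or Trbc with a number. The name field of the files was empty for all 40, so names were assigned by Ensembl identifier. The other 13 annotated segments, Trbv4 and 12 Trbv pseudogenes, were not analysed here.

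Messenger RNA was sequenced from CD4+ T cells taken out of the spleen with a magnetic isolation kit. AngII mice were C57BL/6 animals that received angiotensin II, a peptide hormone that raises blood pressure, at 800 ng/kg/min. The peptide was given by osmotic minipump over 14 days, starting when the mice were 10 weeks old. Control mice were C57BL/6 animals of the same age, labelled untreated over the same time. All mice were premenopausal, with 3 mice and 3 libraries per group, and the comparison throughout is AngII against Control.

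Each developing T cell joins 1 V, 1 D and 1 J segment by cutting and pasting its DNA, and splicing then attaches a constant region. The V segment supplies most of the surface that meets the peptide and its MHC molecule, and the D and J segments complete the most variable loop. Trb has a pair of D-J-C clusters, each with its own D segment, J segments and constant gene. Because a T cell clone passes its chosen V segment to all its descendants, the share of each V segment in the RNA of many T cells is a coarse readout of the repertoire, which an expanded clone would shift. FPKM of a segment (fragments scaled to transcript length and to library size) counts the reads that fall on it in all the cells of a library and cannot be traced back to single receptors. In bulk RNA, fewer cells with a segment and less RNA per cell cannot be told apart.

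The 3′ ends of the 5 Trbv with the highest mean share are shown because they carry the conserved cysteine codon at which the variable loop begins. Capitals mark the letters TGTGCNAG, searched on the coding strand of the last 45 bases, which 16 of the 22 Trbv in the files hold there. Trbv1, at rank 6 by mean share, does not hold them. The letters are only a search pattern, so a segment without them was not read as lacking the cysteine codon.
Trbv13-2: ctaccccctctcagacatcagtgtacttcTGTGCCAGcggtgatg
Trbv13-1: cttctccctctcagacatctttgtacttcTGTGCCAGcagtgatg
Trbv13-3: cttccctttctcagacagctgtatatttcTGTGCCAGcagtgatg
Trbv3: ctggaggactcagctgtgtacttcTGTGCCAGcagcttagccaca
Trbv5: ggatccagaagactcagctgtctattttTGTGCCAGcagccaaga
All 5 lie on the plus strand of GRCm38 and were copied from GENCODE M21 transcripts. Trbv13-2 and Trbv13-3 were 90.6% identical over 340 aligned bases, with an identical run of 50 bases. Trbv12-1 and Trbv12-2 (88.3%, run of 44 bases) and Trbv13-1 and Trbv13-3 (85.9%, run of 34 bases) were the only other pairs, of 231 among the 22 Trbv, that shared at least 30 identical bases. A read that lies wholly within such a stretch fits both members, so the split between members of these families may be less certain than their sums. How far it is depends on read length and was not tested.

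The D and J segments are shown because of their length, which bears on how they can be counted. Capitals in the J segments mark the Phe-Gly-X-Gly codons that end the variable loop, a motif found on the coding strand of 11 of the 14 Trbj.
Trbd1: gggacagggggc
Trbd2: gggactgggggggc
Trbj2-7: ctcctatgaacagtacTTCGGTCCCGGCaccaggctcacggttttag
Trbj2-1: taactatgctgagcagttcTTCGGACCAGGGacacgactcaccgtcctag
Trbj2-3: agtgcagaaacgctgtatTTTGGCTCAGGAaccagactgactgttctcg
Trbj segments have 46 to 54 annotated bases and the Trbd 12 and 14, whereas the Trbv in the files have 289 to 566.

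Over all genes, a library summed to 613674 to 717286 FPKM and had 11438 to 11757 genes at 1 FPKM or more. The libraries carried the defining markers of CD4 T cells: Cd4 was at 238.3, 214.2 and 231.9 FPKM in the AngII libraries and 254, 228.9 and 203 FPKM in the Control libraries. The 6 markers of these cells were above 0 throughout. They summed to 1262, 1037 and 1284 FPKM in AngII libraries and 1304, 1209 and 1110 FPKM in Control libraries. Of these markers, Il7r, Zbtb7b and Cd3e were lowest in AngII replicate 2, and Cd4, Cd5 and Cd28 were not. Il7r was at 226.7, 109.2 and 228.0 FPKM in AngII libraries and 187.8, 151.5 and 153.0 FPKM in Control libraries. Cd8a, the defining marker of CD8 T cells, whose beta chains would be counted too, was at 0.396 to 1.67 FPKM in AngII and 0.639 to 1.01 FPKM in Control. The 5-gene list of CD8 T cells summed to between 34.9 and 49.9 FPKM in AngII and between 41.6 and 62.3 FPKM in Control. Cd8b1, also in that list, was at 9.33 to 12.01 FPKM in AngII and 10.07 to 10.74 FPKM in Control. It was above Cd8a in every library, and Xcl1 was the highest of the list in every library. The low Cd8a values were therefore not read as an absence of CD8 T cells. B cell markers, which measure cells without a T cell receptor, summed to 579, 941 and 800.0 FPKM in the AngII libraries, against 651, 733 and 1139 FPKM in the Control libraries. Macrophage markers summed to 849, 1643 and 794 FPKM in AngII and to 616, 901 and 1044 FPKM in Control. NK cell markers summed to between 178 and 272 FPKM in AngII and between 153 and 270 FPKM in Control. Most of the NK sum was Tyrobp, at 146 to 242 FPKM in AngII and 125 to 228 FPKM in Control. Of the same list, Klrb1c was at 19.3 to 28.5 FPKM, and Ncr1, Klra8 and Klre1 were at most 7.34 FPKM. Ncr1, Klra8 and Klre1 were lowest in AngII replicate 2, where the NK sum was highest. The 6 measured gamma-delta and innate-like markers summed to between 32.4 and 49.4 FPKM in AngII and between 36.0 and 52.1 FPKM in Control. Granulocyte markers summed to 23.2, 72.2 and 68.8 FPKM in AngII against 7.72, 7.88 and 40.2 FPKM in Control. No listed marker was at 0 in all libraries, and the part of these cells in the results that follow was not tested.

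Variable segment usage was broad and was led by Trbv13-2 in every library. Trbv13-2 (ENSMUSG00000076469, 41121396 to 41121832) held 13.2, 12.7 and 13.6% of the summed Trbv FPKM in the AngII libraries and 12.2, 13.5 and 14.4% in the Control libraries. The group means were 13.2 ± 0.435% in AngII and 13.3 ± 1.08% in Control (SD, n = 3), and the AngII values lay inside the Control range. Its level was 235.5, 251.1 and 291 FPKM in AngII libraries against 277.8, 309 and 257.6 FPKM in Control libraries. AngII replicates 1 and 2 were below every Control library, and AngII replicate 3 lay inside the Control range, so the groups overlapped.

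Trbv3 and Trbv5, which lie on the Trbv1 side of the Trbv13 genes, followed. Trbv3 (41048290 to 41048828) held 8.46, 9.65 and 8.15% of the Trbv FPKM in AngII and 7.82, 8.38 and 7.89% in Control. The AngII minus Control difference of 0.724 percentage points was the highest of the 20 Trbv compared, with AngII replicate 2 highest and AngII replicate 3 below a Control library. Trbv5 (41062332 to 41062803) held 8.29, 7.64 and 8.34% in AngII and 8.13, 8.70 and 8.83% in Control, with a difference of -0.465 points, the lowest of the 20, and values that overlapped. The order of these neighbours was not fixed, since Trbv3 ranked above Trbv5 in AngII replicates 1 and 2 and below it in the other 4 libraries.

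Trbv13-1, Trbv13-3 and Trbv1 came next. Trbv13-1 (41116007 to 41116468) held 6.81, 6.98 and 6.43% in AngII and 6.89, 7.08 and 6.54% in Control. Trbv13-3 (41130147 to 41130585) held 7.14, 5.89 and 6.98% in AngII and 6.71, 6.85 and 6.41% in Control. The Trbv13 family together, 3 neighbouring genes interleaved with the Trbv12 genes, held 27.2, 25.6 and 27.0% in AngII against 25.8, 27.4 and 27.3% in Control, so the family sum overlapped as its members did.

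Trbv1 (40891229 to 40891885), the segment farthest from the D, J and C clusters on the 5′ side, held 6.60, 5.99 and 6.43% in AngII and 6.60, 6.54 and 6.10% in Control. Trbv31 (41557691 to 41558452) lies past Trbc2 on the minus strand and is joined by inversion. It held 6.34, 5.62 and 6.46% in AngII and 6.46, 6.51 and 6.04% in Control, with a level of 113.1, 110.8 and 138.3 FPKM in AngII and 147, 149.6 and 108.4 FPKM in Control. The segments at both ends of the locus were thus used at similar shares, and their groups overlapped.

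Lower in the order, Trbv16, Trbv15, Trbv26, Trbv20, Trbv19, Trbv2 and Trbv29 had mean shares between 4.16% (Trbv29) and 6.00% (Trbv16) over the 6 libraries. Trbv14, Trbv17, Trbv12-2 and Trbv12-1 had 3.11, 2.46, 1.90 and 1.39%. Trbv23 and Trbv30 had 0.635 and 0.311%. Trbv21 was listed at 0 in 1 library of each group and reached at most 0.102%, and the pseudogene Trbv10 was above 0 only in Control replicate 3, at 0.277 FPKM. Of the 19 neighbouring pairs among the 20 Trbv with a mean share of at least 0.1%, 12 overlapped in their library values. Those that stood clear of the next in order were Trbv13-2, Trbv5, Trbv29, Trbv14, Trbv12-2, Trbv12-1 and Trbv23. Cumulatively, the 3 most used Trbv held 29.97% of the Trbv FPKM, the first 6 held 49.8% and the first 14 held 90.1%. With FPKM multiplied by exon length, Trbv13-2, Trbv3 and Trbv5 kept ranks 1, 2 and 3, while Trbv19 moved to rank 6 instead of 12 and Trbv13-3 to rank 10 instead of 5.

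**Figure D1:**
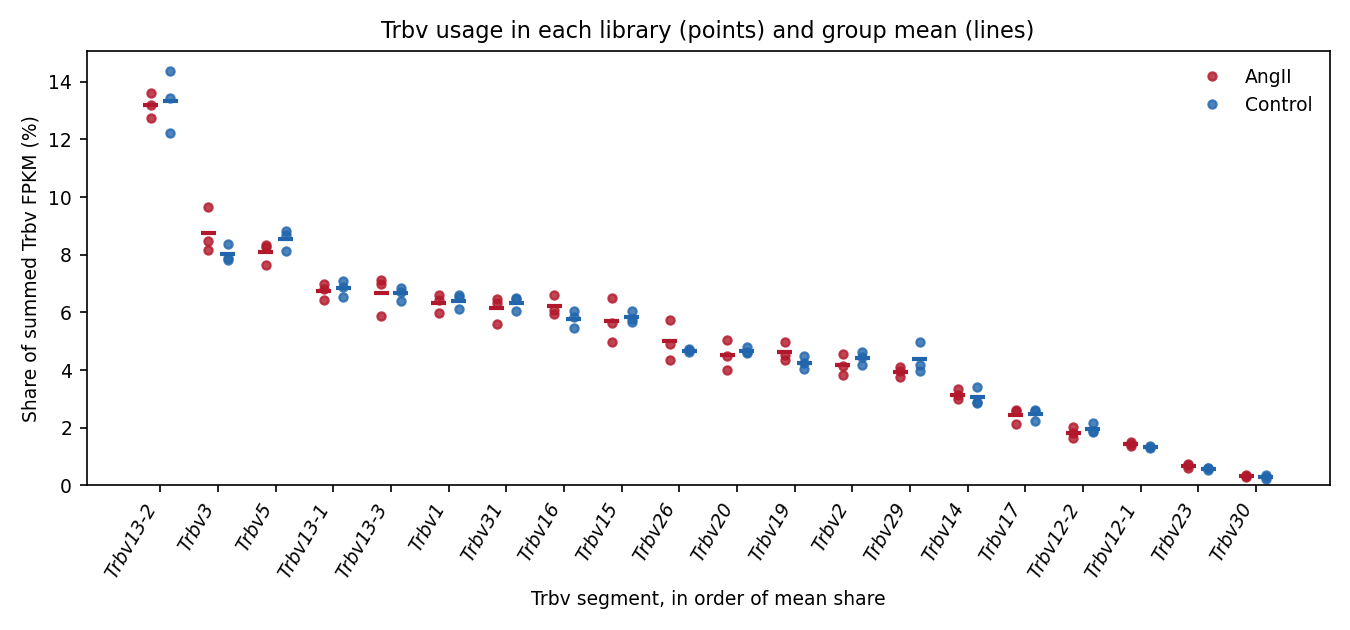
Share of each Trbv segment in the summed Trbv FPKM of its library (y axis, %), for the 20 segments with a mean share of at least 0.1% in order of mean share (x axis). Points are libraries (AngII left in red, Control right in blue, n = 3 each) and lines are group means; Trbv13-2 leads in all 6 libraries and the groups overlap for every segment.

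No V segment had shares that set the groups apart. Of the 20 Trbv with a mean share of at least 0.1%, 9 had a higher mean share in AngII and 11 a lower one, and groups did not overlap for 0 of 20. Across the 11842 genes whose mean reached 1 FPKM, divided by the same summed Trbv FPKM, the groups did not overlap for 2.73%. Leaving out any 1 library, so that 3 values face 2, gave 2 to 6 Trbv without overlap, with 6 of them without AngII replicate 2. Non-overlap is easier to reach with fewer values. No share over all genes is given for 3 values against 2, so the 2.73% is no yardstick for these counts. With 3 libraries against 3, an exact permutation test cannot give a p below 0.1, so single shares were given no p. The coefficient of variation of a share over the 6 libraries had a median of 7.29% over the 20 segments and ranged between 3.74 and 17.4%.

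The differences in usage between mice of the same group and between groups overlapped. The distance between libraries, taken as the percentage points of usage that would have to be moved to turn one profile into the other, was 2.97 to 5.73 among the 3 AngII pairs and 3.20 to 3.87 among the 3 Control pairs, and 2.66 to 5.42 for the 9 pairs across groups. The closest pair of all was AngII replicate 1 with Control replicate 2. AngII replicate 2 lay farthest from the others, at 4.89 to 5.73 points, where the other 5 libraries lay within 3.87 points of each other. It was the highest of the 6 libraries for Trbv3, Trbv15, Trbv20 and Trbv26 and the lowest for Trbv1, Trbv2, Trbv5, Trbv13-3, Trbv17 and Trbv31. The effective number of Trbv segments, the number of equally used segments that would give the same Shannon entropy, was 16.6, 16.6 and 16.5 in AngII libraries and 16.8, 16.4 and 16.5 in Control libraries. Its means of 16.6 ± 0.0400 in AngII and 16.6 ± 0.214 in Control (SD, n = 3) differed by 0.0110 (exact permutation test, two-sided, p = 0.9). The sign of this difference turned when AngII replicate 1, Control replicate 2 or Control replicate 3 was left out, or with FPKM multiplied by exon length.

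Levels of single V segments did not pass the test either. Of the 40 Trb segments, 34 reached a mean of 1 FPKM, and 0 of these 34 passed limma at an adjusted p below 0.05, where 0.0338% of all 11842 genes passed. At an unadjusted p under 0.05 the count was also 0 of 34, against 1.76% of all genes. The FPKM values of the groups overlapped for all 34, whereas those of 5.84% of all genes did not. Log2 fold changes of log2(FPKM + 1), a scale that understates the change of low genes, ranged between -0.25 (Trbv29) and 0.13 (Trbv23) for the 20 Trbv tested. Their median was -0.12, against -0.00 for all genes tested, with 16 of 20 Trbv and 52% of all genes below 0. The 20 values come from the same 6 libraries, so the 16 are not separate observations. The median was -0.24 without Control replicate 3, -0.17 without AngII replicate 3, -0.06 without AngII replicate 1, -0.05 without Control replicate 1 or 2 and -0.08 with quantile normalization.

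The width of the intervals limits these comparisons. For the Trbv tested, the 95% limma interval reached a median of 0.34 to either side on the log2 scale, and no interval extended below -0.63 or above 0.41. Trbv13-2 had a log2 fold change of -0.12 (SE 0.11, limma adjusted p = 0.9999). The values for Trbv3, Trbv5, Trbv13-1, Trbv13-3, Trbv1 and Trbv31 were 0.02, -0.19, -0.12, -0.11, -0.12 and -0.15, at the same adjusted p. These values moved by more than 1.5 times with 1 library left out. The range was -0.21 (without AngII replicate 3) to -0.05 (without Control replicate 2) for Trbv13-2 and -0.28 (without Control replicate 3) to -0.11 (without Control replicate 2) for Trbv5. Trbv13-1, Trbv13-3, Trbv1 and Trbv31 were also nearest to 0 without Control replicate 2, at -0.04, -0.02, -0.05 and -0.07. They were lowest without Control replicate 3, at -0.27, -0.25, -0.27 and -0.30, and Trbv3 was at 0.11 without Control replicate 2 and -0.11 without Control replicate 3.

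**Figure D2:**
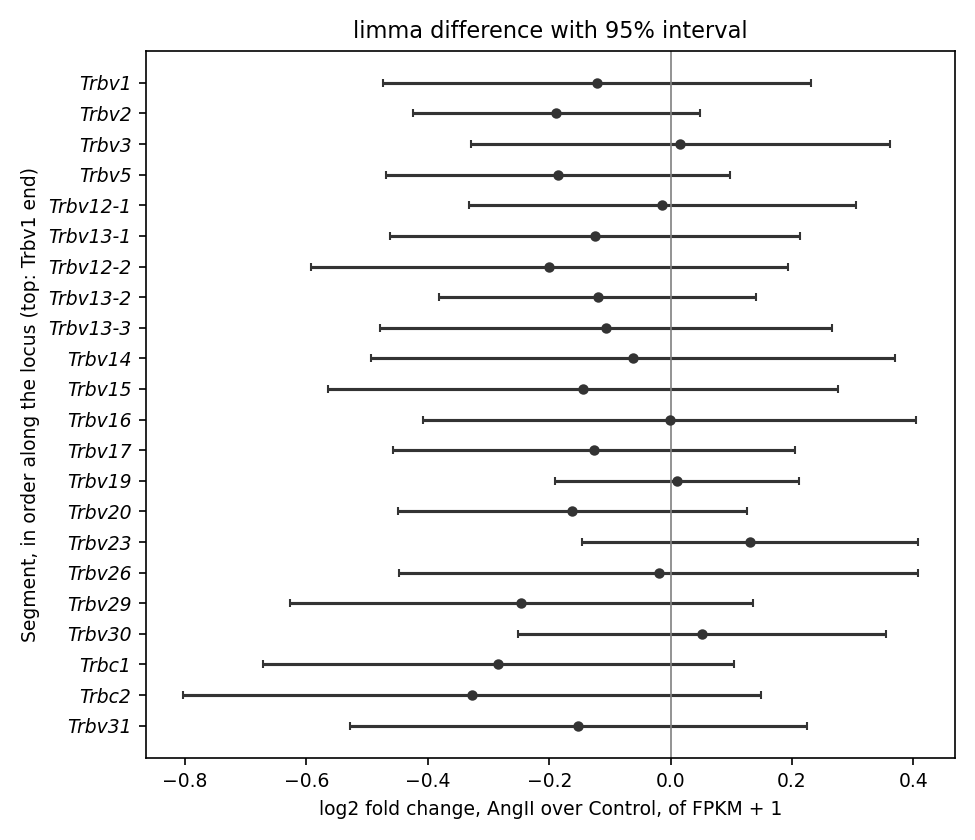
Log2 fold change of FPKM + 1, AngII over Control (x axis), from limma for the 20 Trbv and 2 Trbc segments tested, in order along the locus from the Trbv1 end (top). Points are estimates and bars 95% intervals; every interval includes 0, and Trbc2 has the lowest estimate at -0.33.

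Joining segments were listed at very high values or at 0, and no Trbj set the groups apart. Of the 84 Trbj values, 14 segments in 6 libraries, 25 were above 0, and these lay between 564 and 12830 FPKM. Each library listed 4 or 5 Trbj above 0. Summed Trbj FPKM was 6645 to 27152, above the summed Trbc FPKM of 941 to 1685 in every library. The listed Trbj values were therefore not read as transcript levels. Because a listed 0 may stand for an estimate that failed, library values are given without SD. Trbj2-7, with the highest mean, was listed at 0, 4889 and 11133 FPKM in AngII libraries and 12830, 1577 and 4443 FPKM in Control libraries. Trbj2-1 was listed at 1334, 0 and 7890 FPKM in AngII libraries against 2996, 4406 and 0 FPKM in Control libraries. In both segments a 0 and a high value stood within the same group.

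Trbj2-3 was listed at 1592, 0 and 4512 FPKM in AngII libraries and at 0 in each Control library. Trbj2-2 had the same pattern, with 0, 728 and 3616 FPKM in AngII libraries and 0 in each Control library, while Trbj1-2 was at 0 in each AngII library and at 4125, 0 and 1403 FPKM in Control libraries. Trbj2-2 and Trbj1-2 were singled out after their values were seen. None of the 12 Trbj tested passed limma (smallest unadjusted p = 0.0503, adjusted p = 0.9999). Without 1 library, 1 of them passed in some settings: Trbj2-2 without AngII replicate 1, Trbj2-3 without AngII replicate 2 (limma adjusted p = 0.00476) and Trbj1-2 without Control replicate 2. In each of these settings the library left out was the only one of its group at 0, which leaves a group at 0 against a group of high values.

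Among the other Trbj, 5 were above 0 in a single library, Trbj2-4 in 2 and Trbj1-3 in 3, while Trbj1-7 and the pseudogene Trbj2-6 were at 0 in all. Trbj2 segments, those of the second cluster, made up 44.0, 93.2 and 100% of the summed Trbj FPKM in AngII libraries and 82.6, 72.3 and 73.1% in Control libraries. These percentages rest on 4 or 5 listed values per library and were not read as usage of the cluster. The AngII libraries spanned the whole Control range (exact permutation test, two-sided, p = 1), and the sign of the difference of 3.06 points turned without AngII replicate 2 or 3. Trbd1 and Trbd2, which add the few central bases of the loop, were listed at 0 in all 6 libraries.

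**Figure D3:**
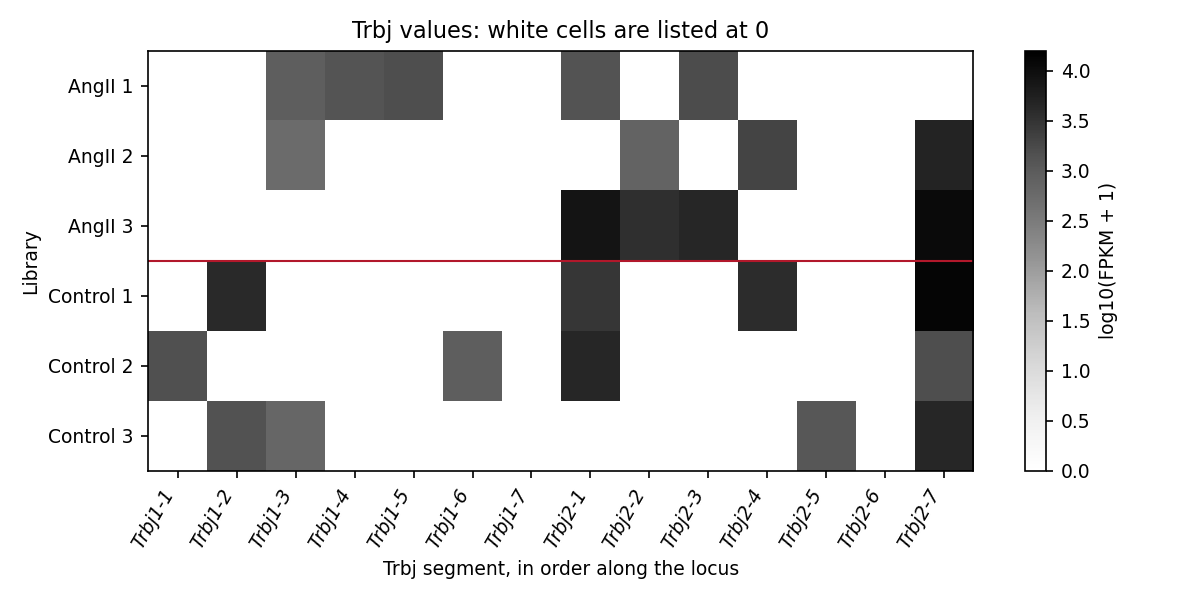
Listed value of the 14 Trbj segments (x axis, in order along the locus) in the 3 AngII libraries (upper rows) and 3 Control libraries (lower rows), as log10(FPKM + 1) on a grey scale; white cells are listed at 0. Of 84 cells, 25 are filled; Trbj2-7 is filled in 5 of the 6 libraries and Trbj2-1 in 4, while 5 segments are filled in a single library.

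Both constant genes were expressed, Trbc2 above Trbc1 per length in each library. Trbc1 (ENSMUSG00000076490, 41538218 to 41539881) was at 303, 390.3 and 455.5 FPKM in AngII libraries and 474.6, 491.9 and 417.1 FPKM in Control libraries. Trbc2 (ENSMUSG00000076498, 41546730 to 41548352) was at 638, 917 and 971 FPKM in AngII libraries and 1077, 1193 and 874 FPKM in Control libraries. AngII replicate 1 was the lowest of all 6 for both genes, and the groups overlapped for both. Means were 383 ± 76.5 FPKM in AngII and 461 ± 39.1 FPKM in Control for Trbc1, and 842 ± 179 FPKM in AngII and 1048 ± 162 FPKM in Control for Trbc2 (SD, n = 3). Their log2 fold changes of -0.28 (SE 0.16) and -0.33 (SE 0.20) did not pass (limma adjusted p = 0.9999 for both). Without AngII replicate 1 they were -0.13 for Trbc1 and -0.14 for Trbc2, and without AngII replicate 3 they were -0.42 and -0.44.

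Trbc2 made up 67.8, 70.2 and 68.1% of the 2 constant genes' FPKM in AngII libraries and 69.4, 70.8 and 67.7% in Control libraries (exact permutation test of the mean, two-sided, p = 0.7). The ranges of the groups overlapped, and the sign of the difference of -0.630 points turned without Control replicate 2. The annotated Trbc1 and Trbc2 transcripts were 95.9% identical over 508 aligned bases, with an identical run of 259 bases, so their split is less certain than their sum.

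The ratio of V to constant segments was higher in AngII, as it was for most genes set over the constant segments. Summed Trbv FPKM was 1783, 1972 and 2140 in AngII libraries and 2275, 2297 and 1793 in Control libraries, with overlapping groups (exact permutation test, two-sided, p = 0.5). Divided by the summed Trbc FPKM of the same library, it was 1.89, 1.51 and 1.50 in AngII and 1.47, 1.36 and 1.39 in Control. The ratio averaged 1.63 ± 0.225 in AngII and 1.41 ± 0.0539 in Control (SD, n = 3), and the groups did not overlap (exact permutation test, two-sided, p = 0.1, the smallest p that 3 against 3 can give). Without AngII replicate 1, the library lowest in both constant genes, the difference in mean ratio was 0.0983, against 0.228 with all libraries.

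Taken one by one against the summed Trbc, all 20 Trbv tested had a higher mean ratio in AngII, as did 96% of the 11842 genes divided by the same sum. For 6 Trbv (Trbv3, Trbv12-1, Trbv16, Trbv19, Trbv23 and Trbv26) the groups did not overlap. Of all the genes, 9.45% were higher in AngII without overlap, and 9.56% did not overlap in either direction. The 20 ratios share their denominator, so they move together with the Trbc values of each library.

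**Figure D4:**
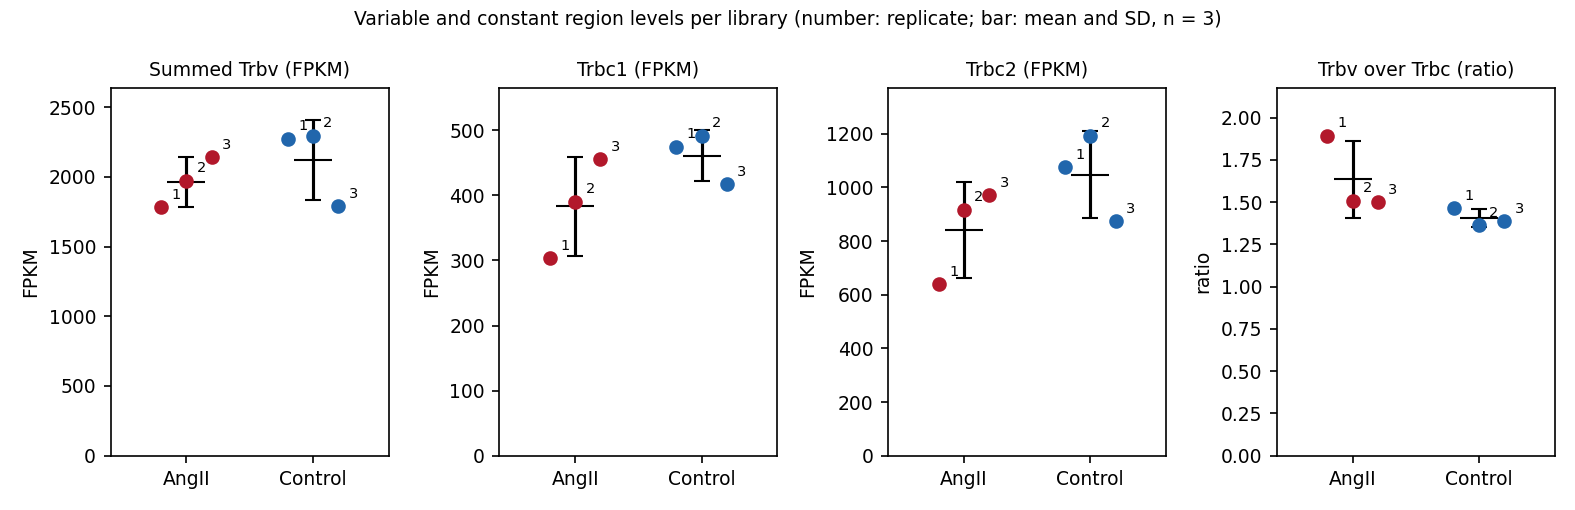
Summed Trbv, Trbc1 and Trbc2 levels (FPKM) and the ratio of summed Trbv to summed Trbc FPKM in each library; points are libraries with their replicate number, and bars are the mean and SD of AngII (left) and Control (right), n = 3 each. The ratio is 1.50 to 1.89 in AngII and 1.36 to 1.47 in Control, while the 3 levels overlap between the groups.

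A list of 24 genes gave the setting for these values: chains of the receptor complex, signalling proteins, genes of segment joining and transcription factors. The 24 listed genes were all in the files, 21 were tested and 0 passed limma, where 0.0338% of all genes passed. Of the 21, 7 had a log2 fold change above 0 and 14 below (median -0.05), where 52% of all genes were below 0. Trac, the constant gene of the partner alpha chain, was at 1434, 1445 and 1599.7 FPKM in AngII and 1674, 1572 and 1389 FPKM in Control. Cd3d, Cd3e, Cd3g and Cd247, the signalling chains of the receptor complex, had log2 fold changes of -0.15, -0.08, -0.13 and -0.09, none past the threshold.

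Rag1 and Rag2, the recombinase that cuts the segments in the thymus, reached at most 0.0213 FPKM in any library and were under the filter. Dntt, which adds untemplated bases at the joints, was at 2.99, 3.20 and 3.85 FPKM in AngII and 4.09, 3.47 and 2.93 FPKM in Control. The 15 other genes of the locus in the files, trypsinogen genes among them, were near silent beside the Trbv, with 6 at 0 in all libraries. The highest value among them was that of Prss2, which lies upstream of Trbd1, at 4.44 FPKM in Control replicate 3.

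In the authors' deposited table, from their own test of conditions that it names only by number, 22 rows name Trb segments, 5 of which pool several segments. Of these rows, 19 were tested in the authors' deposited table, none was significant, and the smallest p was 0.1369, for Trbv29. No direction was taken from it.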

How the data were processed

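Per the labels' protocols, RNA was isolated with a Qiagen RNeasy Micro kit and library preparation followed Illumina TruSeq. The submitters' processing notes name Trimmomatic 0.32, TopHat2 2.1.1, Cuffdiff and the build GRCm38.p3. Annotation release, counting settings and strand: not given in the sources used here. Values deposited by the authors were FPKM per gene and library. Per the file headers, their own comparison gives a p-value and q-value per locus, for conditions that carry no group name. Fragment counts are not given, so depth per value is unknown and no counting interval can be given.

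Names and positions came from GENCODE M21 (GRCm38) by Ensembl identifier, for 37691 of 39171 identifiers. FPKM was tested as log2(FPKM + 1) with limma 3.58.1 in R 4.3.3 (eBayes with trend, two-sided, Benjamini-Hochberg over the 11842 genes whose mean over 6 libraries reached 1 FPKM). The code was tested on simulated data. Shares, ratios and exact permutation tests used Python 3.11.15, pandas 2.3.3, numpy 2.4.6 and scipy 1.17.1, and figures matplotlib 3.10.9. Segments named in full were the 6 Trbv of highest share, any set apart by share or by limma, Trbc1, Trbc2, Trbd1, Trbd2, the 3 highest Trbj and Trbv31. Members and lists were chosen with earlier results of these data known.

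Alternatives were pseudocounts of 0.1 and 5, no filter or a mean of at least 5 FPKM, median-of-ratios scaling, quantile normalization, eBayes without trend or robust, a replicate block, a threshold of 0.1, exon-length weighting, other share filters (0.5% or none), leaving out pseudogenes, and leaving out each library.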

Additional observations from a re-analysis of the deposited data

How the results depend on the processing

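The Trb segments past the limma threshold numbered 0 under each alternative that kept all libraries, and between 0 and 1 with 1 library left out, each time a Trbj. Without the Trbj, a restriction chosen after seeing the data, 0 passed in all settings. Among all genes, 4 passed, against 7 without a filter, 5 with a pseudocount of 0.1 and 4 to 9 with 1 library left out. Trbv whose share groups did not overlap numbered 0 under each share filter, length weighting and gene set, and 2 to 6 with 1 library left out, where 3 stand against 2. No share over all genes is given for 3 against 2, so the 2 to 6 were not read as a difference in usage. The AngII minus Control difference in the effective number of Trbv was 0.0110, but -0.0438 with FPKM multiplied by exon length and -0.0872 to 0.125 with 1 library left out. With 1 library left out the difference lay between -7.41 and 20.6 points for the Trbj2 share, -1.44 and 0.124 points for the Trbc2 share, -321 and -65.6 FPKM for summed Trbv, and 0.0983 and 0.296 for Trbv over Trbc. Log2 fold changes turned sign for Trbv3 (-0.06 without AngII replicate 2, range with 1 library left out -0.11 to 0.11), Trbj2-7 (0.72 without AngII replicate 1, range -6.00 to 0.72) and Trbj2-1 (range -4.05 to 3.78, above 0 without AngII replicate 2, Control replicate 1 or Control replicate 2). The cause was not tested.

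The replicate numbers did not pair the libraries: correlations of same-numbered libraries' deviations from their group means were -0.08, -0.02 and -0.04. With the replicate number as a block, 3 genes and 0 Trb segments passed, and the Trbv over Trbc difference of 0.228 had an exact sign-flip p of 0.25, the smallest that 3 pairs can give. With 3 libraries a group the limma intervals were wide, so a segment that did not pass was not read as unchanged.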

Other observations

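Ratios of the beta chain to its partners were computed after their parts were seen and are given as values. Summed Trbc FPKM over Trac FPKM was 0.656, 0.905 and 0.892 in AngII libraries and 0.927, 1.07 and 0.930 in Control libraries, without overlap (exact permutation test, two-sided, p = 0.1, the smallest possible). Of the 11842 genes tested, 3.76% did not overlap when divided by Trac, and 0.996% were lower in AngII without overlap. Without AngII replicate 1 the difference was -0.0778, against -0.158 with all libraries. Over Cd3e, the same Trbc sum was 1.90, 3.01 and 2.81 in AngII libraries and 2.89, 3.29 and 2.77 in Control libraries, which overlapped (exact permutation p = 0.5). Summed Trbv over Trac was 1.24, 1.37 and 1.34 in AngII libraries and 1.36, 1.46 and 1.29 in Control libraries, which also overlapped (exact permutation p = 0.5). These 3 ratios share the Trbc, Trbv or Trac values already given and are not independent of them.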
